A study of Drosophila melanogaster with 21 samples.

Results

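Genes whose symbol is CR followed only by digits, called CR genes here, are listed in the Drosophila annotation without a coding sequence of their own. Most are long non-coding RNA genes, and the others are antisense RNAs or pseudogenes. Of the 17737 genes in the table, 2611 carry such a symbol, 1325 of these had a read in any of the 9 libraries of the first experiment and 379 averaged at least 5 normalised counts. A normalised count is the number of reads on a gene divided by a size factor that evens out the depth of the libraries. The 145 CR genes described here were chosen by their level in those 9 libraries, an average of 30 normalised counts or more, so their levels are a description and were not tested. The genes just below the cut were CR45424, CR14033 and CR44370, with means over the 9 libraries of 28.5, 29.2 and 29.3. Those just above it were CR45531, CR44218 and CR43857, with 30.5, 30.5 and 30.6.

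The labels give S2 cells for all libraries, a cell line grown from Drosophila embryos that has features of hemocytes, the blood cells of the fly. The methods for RNA interference name S2[Cas9] cells, an S2 line that expresses the nuclease Cas9, which all groups, controls included, would then share. Double-stranded RNA was transfected, and the cells were harvested after 4 days. In the first experiment 3 libraries received dsRNA against EGFP as a non-targeting control (dsEGFP), 3 received dsRNA against all isoforms of Ush (dsUsh) and 3 received dsRNA against dMi-2 (dsMi-2). A second experiment compared 4 libraries of cells depleted of the isoform Ush-B (dsUsh-B) with 4 dsEGFP libraries of its own. The methods name 3 independent transfections, so the source of the fourth library is not given in the sources used here. No group is a mutant, the cells were a single cultured line, and residual protein was not measured in these files. The 4 ChIP-seq libraries of the study were not analysed here.

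Long non-coding RNAs are transcribed and often spliced like mRNAs, yet they are not known to be translated. Many lie within or beside protein-coding genes, where they can share promoters or chromatin with their neighbour, and an antisense RNA is read from the opposite strand of the gene it overlaps. Ush (U-shaped) is the fly member of the FOG family of zinc finger proteins, which bind GATA transcription factors and turn them towards activation or repression. dMi-2 is the ATPase of the nucleosome remodelling and deacetylase complex NuRD, and Ush-B is the isoform of Ush that carries the motif for binding this complex. The comparisons therefore ask which of the expressed CR genes depend on Ush, on dMi-2 or on the isoform that links them.

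The label of a non-coding RNA held for most of the 145 genes but not for all. A Release 6 gene table matched all 145 symbols and listed 91 as lncRNA, 34 as antisense RNA and 19 as pseudogenes. CR43051 was listed there as the protein-coding gene CG43051, and CR43653 under the name lncRNA:Irar. The span of 97 of the genes overlapped another gene, which included all 34 antisense RNAs, 55 lncRNAs and 7 pseudogenes. For 80 the overlapped gene was a protein-coding gene that was itself tested. The remaining 48 overlapped no other gene, and none of the 145 overlapped another of them. Libraries were made with a strand-specific kit for polyadenylated RNA, but whether strand was used in the counting is not stated in the sources used here. Overlap was taken over whole spans, so some reads of a CR gene may have come from the gene it overlaps. The extent was not tested.

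Depth and the depleted genes were examined first. Reads on genes ranged from 21366051 to 26101822 per library in the first experiment and from 46181614 to 59387417 in the Ush-B experiment, and the 145 genes held 0.182% to 0.314% and 0.202% to 0.354% of the normalised counts. Between dsUsh and dsEGFP, ush differed by -0.31 ± 0.13 (SE) on the log2 scale, which missed the threshold (limma, adjusted p = 0.0978), while Mi-2 fell by 1.97 ± 0.15 in dsMi-2 (adjusted p = 6.93e-05). In dsUsh-B the total ush level differed by -0.11 ± 0.18 (adjusted p = 0.927), and the isoform cannot be told apart in counts per gene. Of 11 markers of plasmatocytes, the phagocytic hemocytes, 7 had a mean of at least 30 in dsEGFP, and NimC1 was near 0. None of 4 crystal cell and none of 4 fat body markers reached it. Of 4 markers each, 3 for lamellocytes, 2 for neurons, 1 for muscle, 2 for the germ line and 2 for epithelium did. The crystal cell markers summed to 13.9 to 55.2 in dsEGFP, 234 to 329.6 in dsUsh and 22.4 to 66.6 in dsMi-2. In dsUsh peb held most of that sum, at a mean of 231 against 8.76 in dsEGFP. The mean of lz was 22.1 against 0.35, while PPO1 and PPO2 had lower means (12.0 against 17.6 and 2.38 against 9.16). The summed plasmatocyte markers were 18195 to 21669 in dsEGFP, 31136 to 34308 in dsUsh and 50901 to 64674 in dsMi-2 libraries, but in dsUsh only crq, a scavenger receptor gene, had a higher mean than in dsEGFP among the 7, and the other 6 (Pxn, eater, srp, Col4a1, vkg and SPARC) had lower means. In dsMi-2 the matrix gene SPARC held most of the sum. The 4 lamellocyte markers summed to 452 to 689, 2250.0 to 2302 and 1274 to 1631. Their part in the differences below was not tested, and in bulk RNA fewer cells that express a gene cannot be told apart from less RNA per cell.

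Most of the 145 genes were weakly expressed in control cells, and a single gene held about as many reads as all the others. The median of the mean normalised counts over the 3 dsEGFP libraries was 82.2, in a range from 5.54 to 32195. By class the median was 89.1 for lncRNAs, 78.6 for antisense RNAs and 55.0 for pseudogenes. Over the 9 libraries, 86 genes lay between 30 and 100, 40 between 100 and 300, 15 between 300 and 1000 and only 4 at 1000 or above. In 13 genes the dsEGFP mean was under 30, so that these passed the cut through a depleted group, and none of them was under 5. These values are not divided by gene length, so the order of levels mixes abundance with length.

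**Figure D1:**
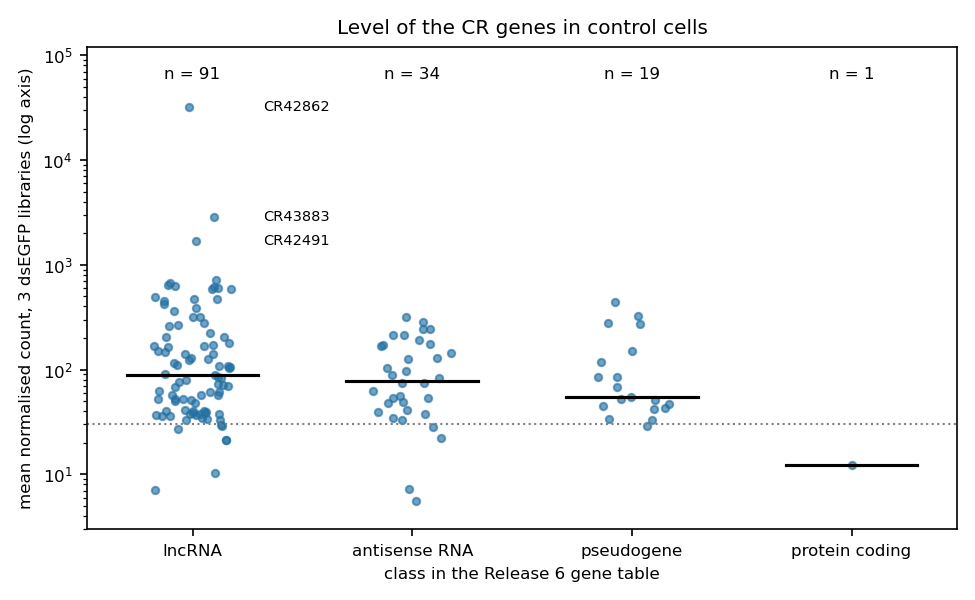
Mean normalised count over the 3 dsEGFP libraries (log axis) of each of the 145 CR genes, by class in the Release 6 gene table. Points are genes, bars are class medians, and the dotted line marks 30. CR42862 stands at 32195, above CR43883 at 2881 and CR42491 at 1680.0, and 13 genes lie under the line.

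CR42862, a lncRNA that overlaps CG33229, had normalised counts of 30711, 20107 and 45767 in dsEGFP, 27308, 27139 and 36668 in dsUsh and 26011, 21335 and 34597 in dsMi-2. It held 42.7% to 59.9% of the summed counts of the 145 genes in every library of both experiments. Its groups overlapped, and it differed by -0.02 ± 0.29 after Ush depletion and by -0.19 ± 0.29 after dMi-2 depletion (log2, SE; limma adjusted p = 0.968 and 0.749). Without it, the sum of the other 144 genes was 22227 to 30658 in dsEGFP, 22001 to 26526 in dsUsh and 24410.2 to 35884 in dsMi-2 libraries, again with overlap between the groups.

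Behind CR42862 came CR43883, at 2881 ± 616 (SD, n = 3), which is described below because it changed in both depletions. The next were CR42491 (1680.0 ± 509), which overlaps the ribosomal protein gene RpL22 and holds the gene of a snoRNA, a small RNA that guides modification of ribosomal RNA, and CR44531 (710.1 ± 154), beside spz5, a gene of the Spätzle family of secreted ligands. CR45973 (673 ± 162) overlaps CG13248, and CR44526 (648 ± 437) lies beside h (hairy), a transcriptional repressor of embryonic segmentation. The spread of CR44526 was wide, with 256, 569.9 and 1119 in the dsEGFP libraries, and the dsEGFP values of CR44531, CR45973 and CR44526 overlapped each other.

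The median spread between replicates was wider in the CR genes than in other genes, but the genes were not matched for level. The median SD of log2 values within a group was 0.42 for the 145 genes, against 0.22 for all genes tested and 0.23 for 3599 other genes with a mean between 30 and 1000. In the Ush-B experiment it was 0.38 against 0.24 and 0.32. The steadiest was CR43685, at 498, 425 and 486 in dsEGFP and 487, 528 and 499 in dsUsh. The least steady was CR43186, at 28.0, 6.25 and 93.9 in dsEGFP, 46.0, 28.4 and 139 in dsUsh and 9.70, 1.99 and 29.2 in dsMi-2. In each of these 3 groups replicate 3 of CR43186 was the highest and replicate 2 the lowest.

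After depletion of all Ush isoforms, 12 of the 145 genes passed the threshold, 4 higher and 8 lower. The largest difference was a rise of CR42839, next to the GATA factor gene srp, while the falls included CR43883, one of the most abundant lncRNAs, and CR46056, which overlaps the cell cycle gene E2f1. Differences were tested with limma on log2 of the normalised count plus 1, in 1 fit of the 9 libraries, two-sided, with Benjamini-Hochberg adjustment over 9132 genes with a mean of at least 5, at an adjusted p under 0.01. A fold change on this scale understates the change of a gene with few counts. Among all genes tested 17.2% passed, 12.3% higher and 4.84% lower, so the 8.28% of the CR genes that passed lay under the background, with 2.76% higher and 5.52% lower. Of the 132 genes with a dsEGFP mean of at least 30, which leaves out those that passed the cut through a depleted group, 9 were called (6.82%), 1 higher and 8 lower. At an unadjusted p under 0.05 there were 46 of the 145 genes (31.7%, against 40.6% of all genes).

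The median difference of the 145 genes was -0.23 on the log2 scale against -0.01 for all genes, with 53 genes above 0 and 92 below. The median was -0.36 for antisense RNAs, -0.23 for lncRNAs and -0.04 for pseudogenes. Genes that overlap another gene had a median of -0.33, and those that overlap none had -0.05. The size of the median moved with the scaling, but not its sign. Upper-quartile scaling and quantile normalisation shifted the median of all genes to -0.12 and -0.20, and that of the CR genes to -0.34 and -0.63. With quantile normalisation 31 CR genes passed, 3 higher and 28 lower, against 9.99% and 11.0% of all genes. Without single libraries the median of the 145 ranged from -0.10 to -0.37. With the replicate number as a block, which paired the libraries of this experiment, 24 CR genes passed (9 higher and 15 lower, against 28.5% of all genes). Libraries were left out singly, here and for each gene below. Leaving out dsEGFP replicate 2, dsUsh replicate 2 or dsUsh replicate 3 left 6, 7 and 6 genes past the threshold, beside 11.6%, 12.2% and 11.1% of all genes, and DESeq2 on the recovered reads gave 22, beside 24.0% of all genes.

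Of the 4 genes that rose, 3 were nearly silent in control cells and passed the cut at 30 only through the dsUsh or dsMi-2 libraries, so that they had to differ. CR42839, a lncRNA that overlaps no other gene and whose nearest neighbour is srp, the GATA factor Serpent that directs blood cell fate, had normalised counts of 6.33, 2.08 and 22.4 in dsEGFP, 339, 807 and 841 in dsUsh and 7.76, 6.96 and 7.80 in dsMi-2. Every dsUsh library was far above every other library, and dsMi-2 overlapped dsEGFP. CR42839 rose by 6.25 ± 0.65 on the log2 scale (limma adjusted p = 9.75e-05), a ratio of the means of 64.5. Its neighbour srp went the other way, by -0.49 ± 0.13, without passing the threshold (adjusted p = 0.0189). In dsUsh-B cells CR42839 stood at 17.95, 33.3, 25.0 and 14.1, which overlapped the 13.2, 19.9, 13.1 and 18.9 of its controls.

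CR43051, listed as the protein-coding CG43051, overlaps bun (bunched, a transcription regulator of the TSC-22 family) and holds a snoRNA gene. It had 11.8, 7.29 and 18.1 in dsEGFP, 40.8, 70.5 and 89.6 in dsUsh and 21.3, 13.9 and 19.5 in dsMi-2. All dsUsh libraries were above all dsEGFP libraries, and the call was lost without dsUsh replicate 3 (limma adjusted p = 0.0112). CR43051 rose by 2.35 ± 0.41 (limma adjusted p = 0.00203), while bun itself differed by 0.01 ± 0.18 (adjusted p = 0.965). The third of these low genes, the antisense RNA CR44137, also rose after dMi-2 depletion and is described with it.

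Of the 4 genes that rose, CR44498 alone had a dsEGFP mean of at least 30. This lncRNA overlaps no gene, and its values were 633, 383 and 776 in dsEGFP, 2629, 2965 and 2640.1 in dsUsh and 618, 290.4 and 701 in dsMi-2. The dsUsh libraries were tightly grouped and well above both other groups, which overlapped. It rose by 2.25 ± 0.33 on the log2 scale, or 4.59-fold in the means (limma adjusted p = 0.000846), and stayed past the threshold in 6 of 6 fits that left out a library. The nearest gene, CG4766, rose with it by 1.96 ± 0.40 (adjusted p = 0.00485). In the Ush-B experiment CR44498 was spread over 1249, 1396, 641 and 3839 in the controls and 1841, 6189.5, 7836 and 5313 in dsUsh-B, a difference of 1.70 ± 0.58 that missed the threshold (adjusted p = 0.604).

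The 8 genes that fell after Ush depletion were measured at 56.8 to 2881 in control cells. CR46056, a lncRNA that overlaps E2f1, the transcription factor that drives entry into S phase, had 47.0, 61.5 and 61.9 in dsEGFP, 17.4, 12.5 and 16.0 in dsUsh and 66.9, 69.6 and 86.8 in dsMi-2. Only the dsUsh libraries were low. CR46056 fell by 1.83 ± 0.25 on the log2 scale (limma adjusted p = 0.000505), whereas E2f1, at a mean of 5105 in controls, differed by 0.05 ± 0.08 (adjusted p = 0.711).

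CR43481 is an antisense RNA over the heat shock gene Hsp67Ba and close to Hsp26, which encodes a small heat shock protein. It had 85.1, 133 and 71.5 in dsEGFP, 33.9, 46.6 and 20.3 in dsUsh and 117, 144 and 100.4 in dsMi-2. The dsUsh group lay below the others without overlap. CR43481 fell by 1.52 ± 0.34 (limma adjusted p = 0.00846). This call was lost without dsEGFP replicates 1 and 2 and dsUsh replicates 1 and 3 (limma adjusted p = 0.0186 to 0.0352). Hsp26 fell as well, by 1.87 ± 0.43 (adjusted p = 0.00922).

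The lncRNA CR45048 had 84.1, 124 and 62.9 in dsEGFP, 32.1, 37.5 and 30.9 in dsUsh and 163, 267 and 222 in dsMi-2. The 3 groups did not overlap, with dsUsh lowest and dsMi-2 highest. CR45048 fell by 1.35 ± 0.28 after Ush depletion (limma adjusted p = 0.00590) and differed by 1.28 ± 0.28 after dMi-2 depletion, which passed only with the replicate block (adjusted p = 0.0158 without and 0.00370 with it). The fall of CR45048 was not called without dsEGFP replicates 1 and 2 and dsUsh replicates 1, 2 and 3 (limma adjusted p = 0.0135 to 0.0239).

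The lncRNA CR44608, next to the ribosomal protein gene RpL40, had 158, 176 and 159 in dsEGFP, 79.9, 79.5 and 81.1 in dsUsh and 172, 143 and 207 in dsMi-2. Its dsUsh values were nearly equal and lay well below the rest. Its call was lost without dsEGFP replicate 2 (limma adjusted p = 0.0111). CR44608 fell by 1.03 ± 0.18 (limma adjusted p = 0.00210), while RpL40 differed by -0.20 ± 0.12 (adjusted p = 0.239).

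CR32027 overlaps Indy, which encodes a citrate transporter of the plasma membrane, and it moved against that gene. It had 399, 374 and 508 in dsEGFP, 234, 174 and 260.4 in dsUsh and 381, 314 and 429 in dsMi-2, so dsUsh was below dsEGFP without overlap. CR32027 fell by 0.94 ± 0.20 (limma adjusted p = 0.00599), but did not pass without dsEGFP replicates 1, 2 and 3 and dsUsh replicates 1 and 2 (limma adjusted p = 0.0120 to 0.0203). Indy rose by 1.02 ± 0.15 (adjusted p = 0.000876), and Cat, the nearby catalase gene, rose by 2.29 ± 0.11 (adjusted p = 1.31e-06).

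CR45018 overlaps IP3K2, a kinase gene of inositol phosphate signalling, and had 493, 402 and 520.5 in dsEGFP, 298, 215 and 281 in dsUsh and 479, 368 and 421 in dsMi-2. It fell by 0.84 ± 0.17 (limma adjusted p = 0.00553), with all dsUsh libraries below the others, and was not called without dsEGFP replicates 1 and 3 and dsUsh replicates 2 and 3 (limma adjusted p = 0.0149 to 0.0192). The smallest of the falls was that of the pseudogene CR18217, at 278, 274 and 290.1 in dsEGFP and 181, 207 and 169 in dsUsh. CR18217 fell by 0.60 ± 0.14 (adjusted p = 0.00933), and this call was lost in each of the 6 fits that left out a library, namely without dsEGFP replicates 1, 2 and 3 and dsUsh replicates 1, 2 and 3 (limma adjusted p = 0.0102 to 0.0419). Reads of a pseudogene can be shared with its parent gene, so its level is uncertain.

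**Figure D2:**
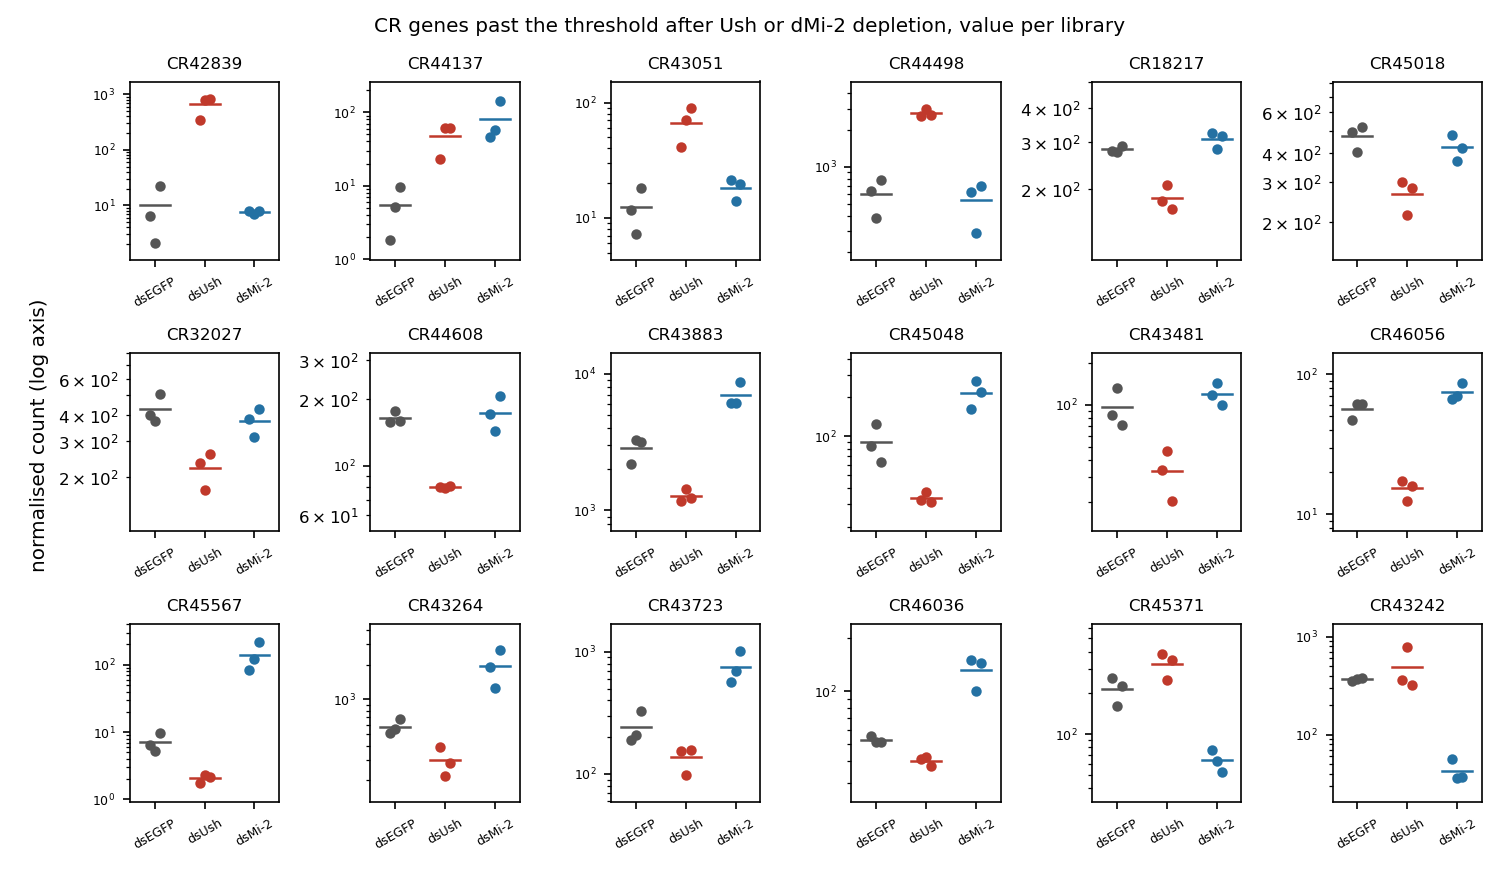
Normalised count per library (log axis, each panel with its own range) of the 18 CR genes past the threshold after Ush or dMi-2 depletion. Points are libraries and bars are group means (n = 3). The panels show the 12 genes called after Ush depletion and then the 6 called after dMi-2 depletion alone. In every panel the called group lies apart from dsEGFP, and CR43883 lies below it in dsUsh and above it in dsMi-2.

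After dMi-2 depletion, 8 CR genes passed the threshold, 6 higher and 2 lower. The rises were led by CR45567 and CR44137, which were close to silent in control cells, and the largest fall was that of the lncRNA CR43242. The test was the dMi-2 contrast of the same fit, with the same dsEGFP libraries as in the Ush comparison, so differences against these shared controls are not independent. Of all genes 6.29% passed, 4.34% higher and 1.95% lower, and the 5.52% of the CR genes lay close to it (4.14% higher and 1.38% lower). Of the 132 genes with a dsEGFP mean of at least 30, 6 were called (4.55%), 4 higher and 2 lower. At an unadjusted p under 0.05 there were 29 of the 145 genes (against 27.4% of all genes). The median difference was -0.08 against -0.01 for all genes, with 64 genes above 0 and 81 below. With quantile normalisation the median was -0.42 and 36 genes were above 0, and 5 passed higher and 4 lower, against 3.80% and 2.34% of all genes. Without dsEGFP replicate 3 the median was 0.12, and without dsMi-2 replicate 2 it was 0.09, so its sign rested on these libraries. Leaving out dsEGFP replicate 2 or dsMi-2 replicate 3 left 4 CR genes past the threshold in each case, beside 3.52% and 3.21% of all genes.

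CR45567, a lncRNA that overlaps no gene, had 6.33, 5.21 and 9.60 in dsEGFP, 1.74, 2.27 and 2.13 in dsUsh and 84.4, 123 and 214 in dsMi-2. In dsUsh each library held 2 reads of it, whereas the dsMi-2 libraries held 87 to 220. Like 12 other genes it passed the cut at 30 only through a depleted group. CR45567 rose by 4.07 ± 0.40 on the log2 scale (limma adjusted p = 0.000246), or 19.97-fold in the means, and the call held in 6 of 6 fits without a library. Its nearest gene, CG14518, rose with it by 3.04 ± 0.60 (adjusted p = 0.00876) from a mean of 1.70 in dsEGFP to 21.9 in dsMi-2.

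CR44137 was the only CR gene past the threshold and higher in both depletions, a count not taken over all genes. It is an antisense RNA over Csk, which encodes a kinase that restrains Src kinases. Its values were 1.81, 5.21 and 9.60 in dsEGFP, 23.4, 60.2 and 60.8 in dsUsh and 46.6, 57.7 and 140.4 in dsMi-2, and both depleted groups lay above the controls without overlap. CR44137 rose by 2.99 ± 0.60 after Ush depletion and by 3.69 ± 0.60 after dMi-2 depletion (limma adjusted p = 0.00476 and 0.00340). With a dsEGFP mean of 5.54, the gene passed the cut at 30 only through the depleted groups, so a rise in dsUsh or dsMi-2 was fixed in advance. Both calls rest on 2, 5 and 9 reads in the controls. The first was lost without dsEGFP replicates 1 and 2 and dsUsh replicates 2 and 3 (limma adjusted p = 0.0140 to 0.0224) and the second without dsEGFP replicate 2 and dsMi-2 replicates 2 and 3 (limma adjusted p = 0.0124 to 0.0155). Csk rose by 1.07 ± 0.23 in dsUsh (adjusted p = 0.00718) and differed by 0.56 ± 0.23 in dsMi-2 (adjusted p = 0.154). In the Ush-B experiment CR44137 stood at 17.3, 29.9, 22.4 and 17.1 in the controls and 22.2, 27.5, 26.2 and 32.9 in dsUsh-B, with overlap.

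CR43883 was the only CR gene past the threshold in opposite directions, a count not taken over all genes. This lncRNA, whose nearest gene is the splicing factor gene Sf3b3, had 2174, 3299 and 3171 in dsEGFP, 1168, 1433 and 1233 in dsUsh and 6136, 6129.9 and 8641 in dsMi-2. The 3 groups were separate, with every dsUsh library below and every dsMi-2 library above the controls. CR43883 fell by 1.15 ± 0.19 after Ush depletion (limma adjusted p = 0.00143) and rose by 1.28 ± 0.19 after dMi-2 depletion (adjusted p = 0.00199). Both calls held in all 6 fits that left out a library. Sf3b3 differed by -0.49 ± 0.16 and -0.05 ± 0.16 and did not pass (adjusted p = 0.0471 and 0.887). In the Ush-B experiment the values of CR43883 were wide, at 4961, 8077, 2949 and 3607 in the controls and 5473, 3919, 2649.8 and 1255 in dsUsh-B.

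A further 3 genes rose from levels between 52.5 and 583. CR43264, over CG15765, had 514, 558 and 677 in dsEGFP, 391, 220.5 and 285 in dsUsh and 1909.7, 1264 and 2662 in dsMi-2. Its dsMi-2 libraries were all above and its dsUsh libraries all below the controls. CR43264 rose by 1.68 ± 0.28 after dMi-2 depletion (limma adjusted p = 0.00366) and differed by -0.99 ± 0.28 after Ush depletion (adjusted p = 0.0242, and 0.00620 with the replicate block). The rise was not called without dsEGFP replicates 1 and 2 and dsMi-2 replicates 1 and 3 (limma adjusted p = 0.0132 to 0.0163).

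CR43723 is an antisense RNA over Coop, which encodes a corepressor of Wnt signalling, and had 189, 208 and 331 in dsEGFP, 154, 98.9 and 158 in dsUsh and 564, 695 and 1014 in dsMi-2. The pattern was that of CR43264, with dsMi-2 highest and dsUsh lowest. CR43723 rose by 1.64 ± 0.29 after dMi-2 depletion (limma adjusted p = 0.00519) and differed by -0.81 ± 0.29 after Ush depletion (adjusted p = 0.0622, and 0.00907 with the replicate block). Without dsEGFP replicates 1 and 2 and dsMi-2 replicates 2 and 3 (limma adjusted p = 0.0171 to 0.0224), the rise did not pass. Coop differed the same way in both, by 0.57 ± 0.15 in dsMi-2 and -0.57 ± 0.15 in dsUsh, without passing (adjusted p = 0.0337 and 0.0189).

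CR46036 overlaps osa, a subunit gene of a SWI/SNF chromatin remodelling complex, and had 55.2, 51.0 and 51.2 in dsEGFP, 40.8, 42.0 and 37.4 in dsUsh and 151, 100.5 and 144 in dsMi-2. The dsMi-2 libraries stood high, and the dsUsh libraries lay slightly below the controls. CR46036 rose by 1.29 ± 0.22 (limma adjusted p = 0.00404), but did not pass without dsEGFP replicates 1, 2 and 3 and dsMi-2 replicates 1 and 3 (limma adjusted p = 0.0103 to 0.0221), and osa differed by -0.02 ± 0.11 (adjusted p = 0.955).

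The 2 falls after dMi-2 depletion came from moderately expressed genes. CR43242, which overlaps no gene and lies next to the splicing factor gene Spf45, had 348, 367 and 381 in dsEGFP, 357, 776 and 323 in dsUsh and 56.3, 35.8 and 37.0 in dsMi-2. The dsMi-2 libraries were far below all others, and 1 dsUsh library stood above the rest. CR43242 fell by 3.09 ± 0.32 on the log2 scale (limma adjusted p = 0.000323), or 8.49-fold in the means, in 6 of 6 fits without a library. Spf45 differed by -0.02 ± 0.11 (adjusted p = 0.930).

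The antisense RNA CR45371, over CG14273, had 255, 159 and 225 in dsEGFP, 388, 248 and 347 in dsUsh and 76.6, 63.7 and 52.6 in dsMi-2. Its dsMi-2 libraries lay below all others. CR45371 fell by 1.70 ± 0.25 (limma adjusted p = 0.00196), beside CG14273 at -1.34 ± 0.27, just short of the threshold (adjusted p = 0.0105).

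**Figure D3:**
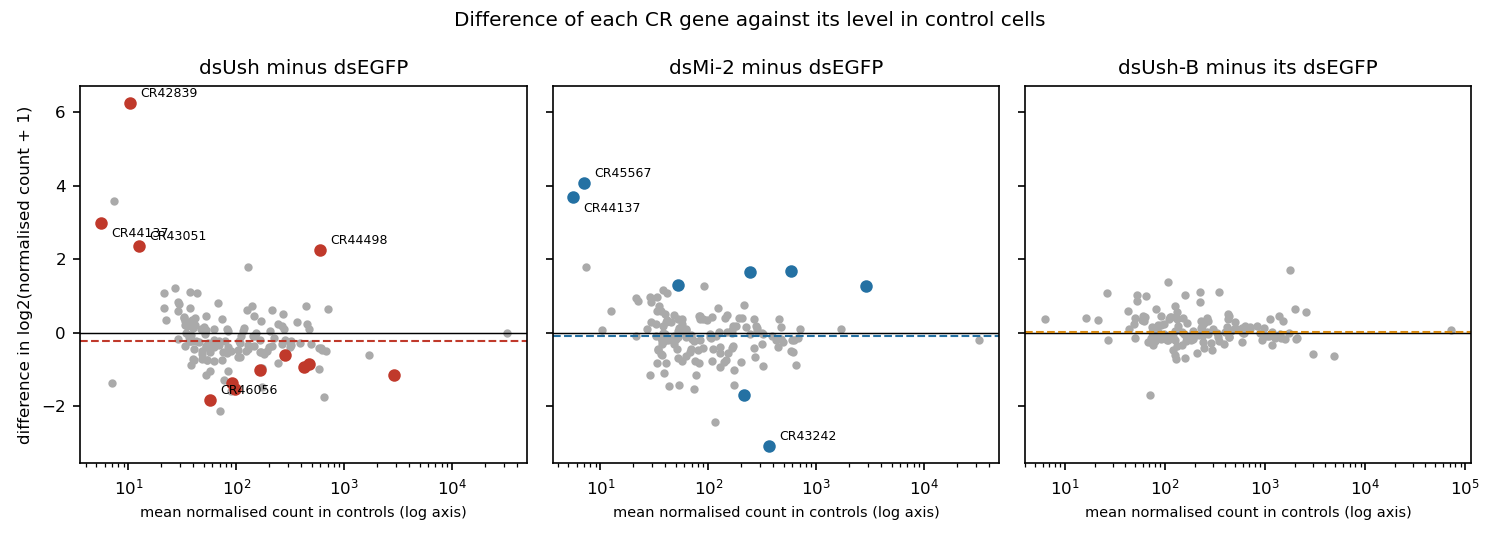
Difference of each of the 145 CR genes in log2(normalised count + 1) against its mean normalised count in the controls of the same experiment (log axis), for dsUsh, dsMi-2 and dsUsh-B. Coloured points passed the threshold, grey points did not, and dashed lines are the medians of the 145 genes (-0.23, -0.08 and 0.03). CR42839, CR44137 and CR43051 stand at the low end in the first panel and CR45567 and CR44137 in the second.

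The depletions were also compared with each other, since a gene called after one and not after the other need not differ between them. In the contrast of dsUsh minus dsMi-2, which uses no control library, 24 CR genes passed the threshold, 10 higher in dsUsh and 14 higher in dsMi-2. Of all genes 22.8% passed, 14.5% and 8.31% in the respective directions, against 6.90% and 9.66% of the CR genes. Of the 132 genes with a dsEGFP mean of at least 30, 20 passed (15.2%), 7 higher in dsUsh and 13 higher in dsMi-2. Of the 13 under 30, which reached the cut only through a depleted group, 4 passed, 3 of them higher in dsUsh. The median difference was -0.16, against -0.01 for all genes. Upper-quartile scaling moved the 2 medians to -0.30 and -0.16 and called 9 higher and 20 lower (11.5% and 13.0% of all genes). Quantile normalisation moved them to -0.27 and -0.13 and called 10 and 21 (12.0% and 13.3%). With the replicate block 43 genes passed (35.4% of all genes), 18 higher and 25 lower.

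The strongest contrasts came from the genes above. CR45567 differed by -5.44 ± 0.40 (limma adjusted p = 1.07e-05), CR43264 by -2.67 ± 0.28, CR45048 by -2.64 ± 0.28, CR43723 by -2.45 ± 0.29 and CR43883 by -2.43 ± 0.19. CR45567 and CR42839 were both under 30 in dsEGFP and reached the cut only through the group where they are high, so their contrasts had to be large. On the other side CR42839 differed by 6.17 ± 0.65 (adjusted p = 8.56e-05), CR43242 by 3.38 ± 0.32, CR44498 by 2.45 ± 0.33 and CR45371 by 2.32 ± 0.25. CR44137, which rose in both depletions, did not pass in this contrast (-0.70 ± 0.60, adjusted p = 0.394).

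In 9 of the 24 genes neither depletion differed from the controls past the threshold, a share not worked out over all genes. Only CR44138 of these falls under the rule for named genes. It is a lncRNA over CG9813 and had 47.0, 157 and 143 in dsEGFP, 92.9, 199 and 64.0 in dsUsh and 18.4, 19.9 and 16.6 in dsMi-2. The dsMi-2 values were low and even, while the other groups were wide and overlapped each other. CR44138 was 2.47 ± 0.51 higher in dsUsh than in dsMi-2 (limma adjusted p = 0.00430) and differed by -2.42 ± 0.51 between dsMi-2 and dsEGFP (adjusted p = 0.0125, and 0.00455 with the replicate block). The contrast was lost without dsUsh replicates 1 and 2 and dsMi-2 replicates 1, 2 and 3 (limma adjusted p = 0.0124 to 0.0164).

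The other 8 were picked out after their values were seen. CR42719, beside Reg-2, had 138, 132 and 150.4 in dsEGFP, 219, 235 and 247 in dsUsh and 109.6, 59.7 and 79.0 in dsMi-2, so that dsUsh lay above and dsMi-2 below the controls without overlap. CR42719 differed by 1.53 ± 0.22 in the contrast (limma adjusted p = 0.000592, 6 of 6 fits without a library). Reg-2 itself rose by 2.90 ± 0.47 in dsUsh and fell by 2.57 ± 0.47 in dsMi-2 (adjusted p = 0.00143 and 0.00623). The pseudogenes CR43275 and CR42490 and the lncRNA CR44825 were higher in dsUsh as well, by 1.98 ± 0.42, 1.18 ± 0.22 and 1.34 ± 0.28. CR43275, at a mean of 28.7 in dsEGFP and 13.4 in dsMi-2, passed the cut at 30 only through dsUsh. CR44429 over the hormone receptor gene gce, CR43653 over the insulin receptor gene InR, CR45108 over cn and the lncRNA CR45047 were higher in dsMi-2, by 0.78 to 1.07 on the log2 scale, in fits with adjusted p of 0.00813 to 0.00895.

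**Figure D4:**
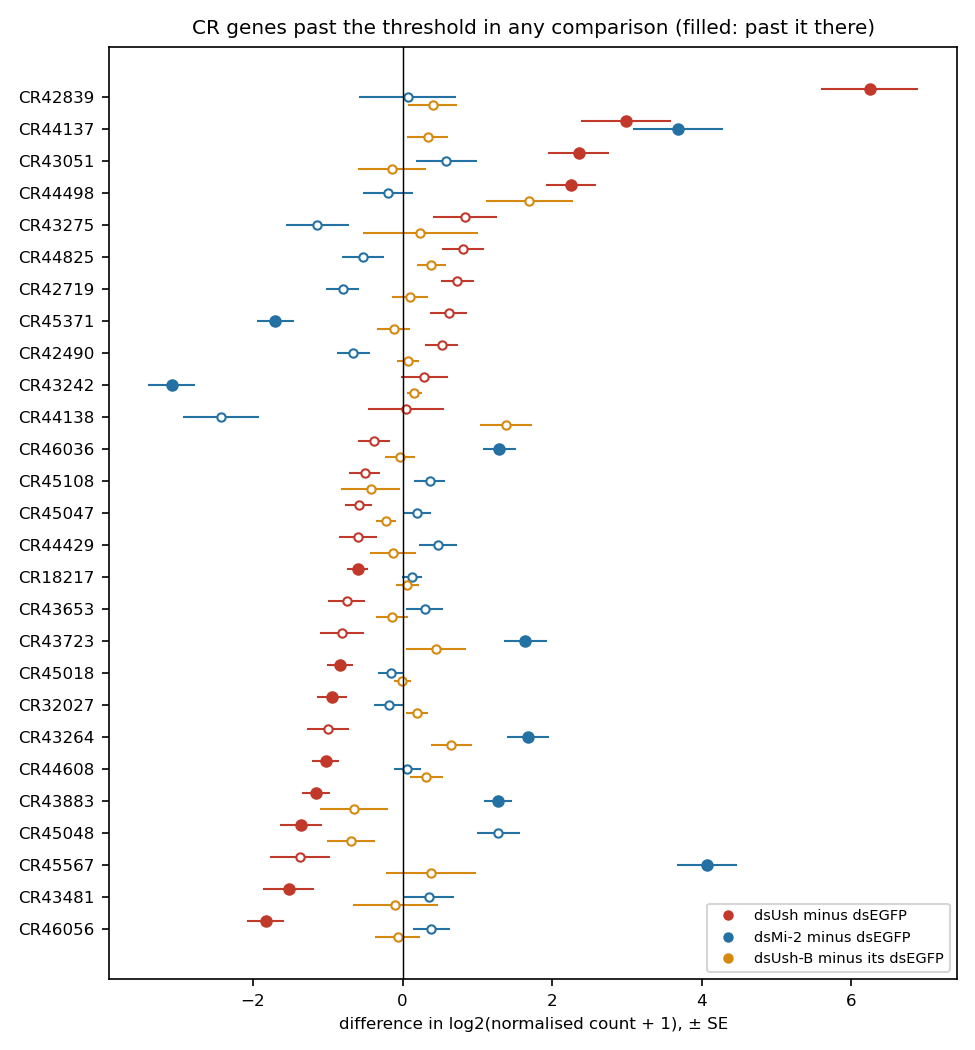
Difference in log2(normalised count + 1) with its SE for the 27 CR genes past the threshold in any comparison, in order of the dsUsh difference. Filled points passed the threshold in that comparison, open points did not, and no dsUsh-B point is filled. CR43883, CR45048, CR43264 and CR43723 lie left of 0 in dsUsh and right of it in dsMi-2, while CR42719 and CR45371 lie the other way.

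Depletion of Ush-B left no CR gene past the threshold of an adjusted p under 0.05, which the study used for this comparison. The fit of its 8 libraries called 1 of 9648 genes tested (0.0104%). At an unadjusted p under 0.05 there were 9 CR genes (6.21%, against 7.09% of all genes), edgeR called 0 and DESeq2 called 1 (against 0.943% of all genes). The median difference was 0.03 against 0.00 for all genes, with 79 genes above 0 and 66 below. The median SE per gene was 0.25 here and 0.33 in the first experiment.

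The gene called by DESeq2 was CR44138, at 105, 62.7, 71.9 and 186 in the controls and 258, 308, 174 and 298 in dsUsh-B. Replicate 4 of the controls reached the range of the depleted libraries. CR44138 differed by 1.38 ± 0.35 (limma adjusted p = 0.454, DESeq2 adjusted p = 0.0356), and over its alternatives the adjusted p ranged from 0.0356 to 1.000. The largest differences in either direction were those of CR44498, given above, and of CR44042, whose dsUsh-B values were 134, 17.6, 1.19 and 7.52 beside 167, 43.8, 67.2 and 9.01 in the controls, with wide overlap. Control replicates 3 and 4 differed from 1 and 2 by at least 2-fold in 6 CR genes (4.14%, against 6.05% of all genes), and 37 of the 145 genes had Ush-B differences of opposite sign in replicates 1 and 2 and in replicates 3 and 4, while 108 had the same sign.

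None of the 18 genes past the threshold after Ush or dMi-2 depletion passed in dsUsh-B. Among the 12 genes called after Ush depletion, the Ush-B differences ran from -0.69 ± 0.32 for CR45048 to 1.70 ± 0.58 for CR44498. The 4 genes that rose in dsUsh stood at 0.40 for CR42839, 0.34 for CR44137, -0.14 for CR43051 and 1.70 for CR44498, each short of the threshold. The experiments have controls of their own and were normalised separately, so levels cannot be set across them, and a difference between the responses was not tested.

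CR genes and the genes they overlap had differences of the same sign in about as many pairs after either depletion. Over 80 pairs of a CR gene and the tested coding gene it overlaps, the log2 differences correlated with Pearson's r of 0.37 and a Spearman coefficient of 0.28 after Ush depletion and with 0.33 and 0.36 after dMi-2 depletion, and 52 and 53 pairs had the same sign. For 46 genes that overlap none and their nearest gene, 22 and 31 pairs had the same sign, and r was 0.12 and the Spearman coefficient 0.14 after Ush depletion and 0.58 and 0.38 after dMi-2 depletion. In Ush-B the values were 0.37 and 0.36 over 80 overlaps and 0.44 and 0.41 over 45 neighbours. These correlations run across genes, which are not independent replicates. Both genes of a pair come from the same libraries, and overlapping genes may share reads.

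Pairs in which both genes were called were counted beside the share of all genes called, 17.2% after Ush depletion and 6.29% after dMi-2 depletion. The number of such pairs that would arise by chance was not worked out. After Ush depletion 7 CR genes and 13 overlapped genes (16.2%) were called, and in 2 pairs both were. These were CR44137 with Csk, which rose together, and CR32027 with Indy, which went opposite ways. Among the 46 neighbour pairs 4 CR genes and 12 neighbours (26.1%) were called, with CR44498 and CG4766 the only pair where both were. After dMi-2 depletion no overlapping pair had both called, and CR45567 with CG14518 was the only such neighbour pair. CR45717 over MFS3, picked out after its values were seen, had 14.5, 93.8 and 103 in dsEGFP and 10.4, 23.9 and 5.34 in dsUsh and differed by -2.14 ± 0.77, the lowest value of the 145 genes, without passing (limma adjusted p = 0.0646), while MFS3 fell by 3.26 ± 0.69 (adjusted p = 0.00623).

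**Figure D5:**
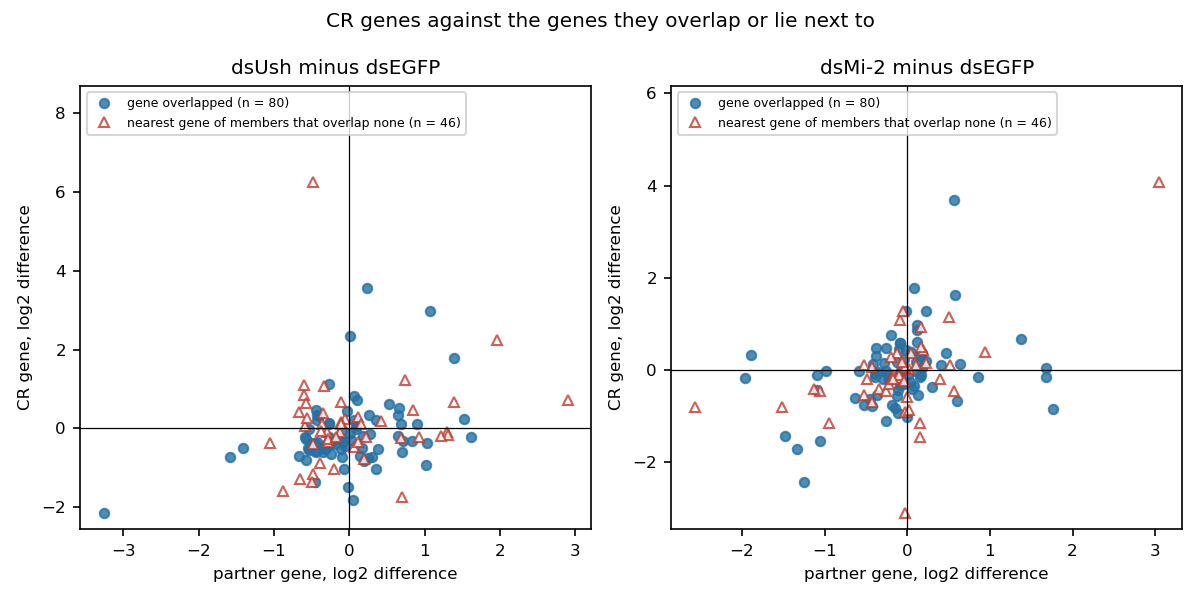
Log2 difference of a CR gene (vertical axis) against that of the gene it overlaps (circles, n = 80) or, where it overlaps none, of its nearest gene (triangles, n = 46), for dsUsh and dsMi-2. Each point is a pair of genes. CR42839 stands alone at 6.25 above a slightly negative srp, and CR45567 and CG14518 share the upper right of the second panel.

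Of the 145 genes, 10 hold the gene of a small RNA within their span, 8 of a miRNA and 2 of a snoRNA. The single miRNA genes are bantam (CR43334), which promotes growth and blocks cell death, mir-8 (CR43650), mir-184 (CR44206), mir-275 (CR43857) and mir-bft (CR43314). The pairs are mir-279 and mir-996 (CR31044), mir-277 and mir-34 (CR43459) and mir-281-1 and mir-281-2 (CR46194). Strand is not given for these spans, so whether a CR RNA is the precursor of the small RNA cannot be told. The files hold no reads of mature miRNAs, so these values describe only the CR genes. After Ush depletion 3 of the 10 were above 0 and 7 below, with a median of -0.37, and only CR43051 passed. None passed after dMi-2 (median -0.09) or Ush-B depletion (median -0.01), against 6.29% and 0.0104% of all genes.

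CR43334, which spans bantam, had 417, 597 and 734 in dsEGFP, 422, 373 and 500.5 in dsUsh and 340.4, 351 and 538 in dsMi-2. These groups overlapped, and the differences were -0.40 ± 0.24 and -0.50 ± 0.24 (limma adjusted p = 0.242 and 0.219). CR43650, which spans mir-8, had 40.7, 52.1 and 64.0 in dsEGFP and 13.9, 35.2 and 23.5 in dsUsh, and differed by -1.15 ± 0.40 (adjusted p = 0.0549).

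CR46194 is listed as an antisense RNA and spans the mir-281 pair. It overlaps both Oda, the ornithine decarboxylase antizyme gene, and SmD3, and which of them it is antisense to is not given. Its values were 54.3, 78.1 and 249 in dsEGFP, 206, 585 and 370.3 in dsUsh and 60.1, 63.7 and 126 in dsMi-2. Its dsEGFP replicate 3 lay above dsUsh replicate 1. CR46194 differed by 1.79 ± 0.57 after Ush depletion (limma adjusted p = 0.0415, and 0.00708 with the replicate block), next to a rise of Oda by 1.39 ± 0.26 (adjusted p = 0.00288).

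The replicate block called 12 further CR genes after Ush depletion and lost none of the 12. The largest were CR45999 and CR46194. CR45999, an antisense RNA over CG9855, had 9.05, 0 and 12.8 in dsEGFP and 38.2, 45.5 and 128 in dsUsh. It differed by 3.58 ± 0.93 (limma adjusted p = 0.0172 without and 0.00255 with the block). With a dsEGFP mean of 7.28, CR45999 passed the cut on level only through the dsUsh libraries, so its rise was fixed in advance. The same held for CR46204, also among the 12 further genes, with means of 27.2 in dsEGFP and 64.3 in dsUsh. CR44526, beside h, differed by -1.73 ± 0.51 (adjusted p = 0.0304 and 0.00136), from 256, 569.9 and 1119 in dsEGFP to 146, 128 and 234 in dsUsh, and every dsUsh library was under every control. The abundant genes CR42491, CR44531 and CR45973 differed by -0.59, 0.64 and -0.50 and passed only with the block (adjusted p = 0.00334, 0.00656 and 0.00480, against 0.0964, 0.0164 and 0.275 without).

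Non-coding RNA genes with a name of their own were examined beside the CR genes, from a list of 43 names of which 27 were in the tables and 14 were tested. After Ush depletion 1 of the 14 was called, lower, and after dMi-2 depletion 0, against the 17.2% and 6.29% of all genes. The gene was Uhg2, a host of snoRNAs, at 632 ± 51.7 in dsEGFP, 366 ± 27.5 in dsUsh and 797 ± 28.3 in dsMi-2 (SD, n = 3). It fell by 0.79 ± 0.11 on the log2 scale (limma adjusted p = 0.000677). The dosage compensation RNA roX2 stood at 921 in dsEGFP and 404 in dsUsh, a difference of -1.14 that did not pass (adjusted p = 0.221), and roX1 was at 4.34 and 7.32. Hsromega, a nuclear RNA induced by heat shock, was at 1962 and 1543 (adjusted p = 0.314).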

How the data were processed

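RNA-seq libraries of S2 cells from 2 experiments (9 and 8 libraries) were examined. The deposited signal values are normalised counts per gene. The authors aligned single reads with STAR, counted them per gene with featureCounts and divided by DESeq2 size factors, which leaves gene length uncorrected. The submitters' processing notes list featureCounts 1.6.2 and DESeq2 2.11.40.2. Neither the build of the genome nor strand handling during counting is given in the sources used here. The 3 deposited comparison tables hold the authors' log2 fold changes, standard errors, p-values and adjusted p-values and were not used. In each library 100% of the values were whole multiples of a step (tolerance 0.05), which gave back the reads. On these reads edgeR called 1492 genes for Ush, 528 for dMi-2, 2041 for the direct contrast and 0 for Ush-B, of which 11, 8, 22 and 0 were CR genes.

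Tests used R 4.3.3 and limma 3.58.1 on log2(normalised count + 1), with a trend of the variance over the mean, a filter at a mean of 5 and Benjamini-Hochberg adjustment over all genes tested. Alternatives changed the pseudocount, filter, scaling, threshold, member cut, libraries in the fit, replicate block or tool (edgeR 4.0.16, DESeq2 1.42.0), or left out each library in turn. The fit was also run on simulated data with known changes. These gave every gene the same spread setting and no pairing of libraries, so they do not speak for the wider spread of the CR genes. Replicate numbers paired the libraries of the first experiment, since all 9 pairs of same-numbered libraries deviated together (correlation 0.24 to 0.57). Classes, overlaps and nearest genes came from a Release 6 gene table and carry no strand. The members and lists were chosen with earlier results of these data known. Named genes were the largest called rises and falls without overlap (up to 8 each), the 5 largest contrasts each way, genes called in both depletions, the 6 highest in dsEGFP and those at the cut. Others are marked or belong to a described group. The labels do not describe the replicates beyond their numbers, and p-values measure only the spread between these libraries, which may in part be technical.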

Additional observations from a re-analysis of the deposited data

Results flagged for a closer look

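In the Ush-B experiment, with 4 libraries a group, 54 groups, both groups of each of the 27 CR genes that the naming rule gave, were examined for a library far from the others, and 4 were flagged, where chance flags about 1 in 20. CR18217 was at 748 in control replicate 4, against 506 to 532 in the other controls. CR45973 was at 1649 in the same library, against 2126 to 2222. CR43481 was at 259.8 in dsUsh-B replicate 1, against at most 84.4 in the others, and CR46056 at 42.3 in dsUsh-B replicate 4, against 85.5 to 94.1.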

How the results depend on the processing

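Of 30 results for named genes, 17 stayed past the threshold in every alternative and none of the 510 values reversed, while 65 lost the threshold, 51 of them among the 180 fits without a library. Counts for the full set of CR genes are followed by the share of all genes called under that setting. Counts at other member cuts, and of the genes that overlap no other, are given without one. After Ush depletion 12 CR genes passed (17.2%). The number was 29 at an adjusted p under 0.05 (29.3%), 31 with quantile normalisation (21.0%), 24 with the replicate block (28.5%), 22 with DESeq2 (24.0%), 6 with only the 2 groups compared (12.5%) and 6 to 11 without a library (11.1% to 15.0%). It was 23 of 286 genes at a member cut of 10 and 4 of the 48 genes that overlap no other. After dMi-2 depletion it was 8 (6.29%), 11 with the replicate block (13.0%) and 4 to 7 without a library (3.21% to 5.78%). It was 14 at a cut of 10, 5 at a cut of 100 and 3 of those that overlap no gene. In the direct contrast it was 24 (22.8%), 41 at 0.05 (36.6%), 43 with the replicate block (35.4%) and 16 to 18 without a library (15.3% to 17.7%). It was 42 at a cut of 10, 13 at a cut of 100 and 8 of those that overlap no gene. For Ush-B it was 1 with DESeq2 (0.943%), 0 with the replicate block (0%) and 0 in each fit without a library (0% to 0.0416%). There the numbers were not taken as pairs, since same-numbered libraries correlated at -0.05 to 0.66. Libraries of unlike number correlated at -0.61 to 0.76. The highest of these were control replicate 4 with dsUsh-B replicate 3 (0.76) and control replicate 3 with dsUsh-B replicate 4 (0.52). A pairing across numbers was not tested. The cause of the differences between settings was not tested, except that the other cuts change how many genes are examined. Of the 24 CR genes with a difference of at least 2-fold after Ush depletion, 15 did not pass, and the median SE was 0.33.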
